A study of Mus musculus with 7 samples.

Results

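Siglecs are sialic acid-binding immunoglobulin-like lectins, receptors on the cell surface that bind sialic acid at the ends of glycan chains. Most carry an immunoreceptor tyrosine-based inhibitory motif (ITIM) in the cytoplasmic tail, which recruits the phosphatase SHP-1 and dampens activating signals. They fall into a conserved group, which includes Siglec1, Cd22 and Mag, and a faster evolving group related to Cd33, which includes Siglecf, Siglece and Siglecg. In the mouse lung, Siglec-F is the standard surface marker of alveolar macrophages and is also made by eosinophils. The 6 genes described here were taken by symbol (Siglecf, Siglece, Cd33, Siglecg, Siglec1 and Cd22), out of 47643 genes in the table.

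Their transcripts were measured by poly(A) RNA-seq in macrophages of the mouse lung airspaces in 7 libraries. A single library came from cSiah1a/2f/f::CD11ccre mice (CD11ccre, n = 1) and 3 from cSiah1a/2f/f::Lyz2cre mice (Lyz2cre). In both lines the Siah1a and Siah2 genes, which encode ubiquitin ligases, are floxed, and Cre is expressed either from the CD11c (Itgax) promoter or from the lysozyme gene Lyz2, both active in other myeloid cells too. The other 3 libraries were labelled WT, with no statement of floxed alleles or Cre. The labels give a gate on CD11c, F4/80 and SiglecF with the WT genotype, so the product of 1 member was itself a sorting marker. Whether the Cre lines were sorted with the same gate is not stated in their genotype labels, and a difference in sorting between WT and the Cre lines cannot be told apart from one in genotype. The labels state no age. Whether the replicates were separate mice is not stated. P-values therefore measure only the spread between these libraries. The comparison asks how these receptors differ between WT and the lines with floxed Siah1a and Siah2.

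Of the 6 genes, 4 lie together on chromosome 7 within 308.821 kb (mm10, GENCODE M21). Siglecf is at chr7:43351341-43359531 and Siglecg at chr7:43408204-43418358, both on the plus strand, and Cd33 at chr7:43524216-43544428 and Siglece at chr7:43651070-43660161 are on the minus strand. Cd22 is apart from them at chr7:30865402-30880342, minus strand, 18.8 kb from Mag at chr7:30899176-30914873, and Siglec1 is at chr2:131069220-131086765, minus strand. No member overlapped another gene on its own strand. Cd22 overlaps the opposite-strand model Gm29439, which was listed at 0 in every library. Of all stretches of the read length, 75 bases, none in a member's transcripts occurred in those of another member, and between 0% (Siglecf, Siglece and Cd22) and 2.79% (Siglecg) occurred in another gene, so reads of the members are seldom shared.

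Siglecf and Cd33, members of this cluster with Siglecg between them, share a stretch of promoter letters, and the bases from -250 to -1 before the RefSeq start (GRCm38.p6) are shown for them and for Siglece, the other member whose level fell. Capitals mark a run of 16 bases common to Siglecf and Cd33. The windows are chr7:43351091-43351340 on the plus strand for Siglecf, chr7:43533172-43533421 on the minus strand for Cd33 and chr7:43660162-43660411 on the minus strand for Siglece, each written 5′ to 3′. The Cd33 window lies inside the GENCODE span of the gene given above, downstream of the start of that span, so it stands before the RefSeq start only.
Siglecf: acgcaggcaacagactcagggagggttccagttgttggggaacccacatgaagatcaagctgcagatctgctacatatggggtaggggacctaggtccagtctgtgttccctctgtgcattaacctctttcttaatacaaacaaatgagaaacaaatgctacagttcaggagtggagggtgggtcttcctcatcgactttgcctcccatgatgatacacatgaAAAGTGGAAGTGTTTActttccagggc
Cd33: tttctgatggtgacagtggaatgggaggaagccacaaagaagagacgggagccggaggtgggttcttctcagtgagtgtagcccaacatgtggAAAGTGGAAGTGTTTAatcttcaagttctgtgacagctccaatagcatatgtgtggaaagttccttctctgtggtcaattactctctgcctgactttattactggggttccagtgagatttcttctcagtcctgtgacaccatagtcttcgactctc
Siglece: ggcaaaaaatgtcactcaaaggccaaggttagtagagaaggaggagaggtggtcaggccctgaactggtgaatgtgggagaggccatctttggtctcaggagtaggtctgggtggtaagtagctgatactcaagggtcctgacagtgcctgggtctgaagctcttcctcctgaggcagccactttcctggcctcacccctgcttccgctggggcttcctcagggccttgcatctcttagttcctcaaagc

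The shared run starts at -27 in Siglecf and at -157 in Cd33, and it was found in 2 of 32851 RefSeq promoter windows (250 bases before to 50 after a start), those of these genes. It lies in a longer aligned stretch, from -30 to 48 in Siglecf and from -160 to -81 in Cd33, with 62 of 80 aligned columns identical (77.5%). Between other members the longest common run was 10 bases. Of the 6 members, 5 had a window. The run holds GGAAGTG, the letters of an ETS core bound by PU.1, the lineage factor of macrophages. These letters, searched on both strands, stood in 3615 of the 32851 windows and among the members only in those of Siglecf and Cd33. The RUNX letters TGTGGT, in 16.8% of windows, were also found in those of Siglecf (at 41) and Cd33 (at -88). In both genes the ETS and RUNX letters lie in the aligned stretch, so they are not likenesses separate from it. C/EBP letters TTNCNNAA, in 40.7% of windows, occurred at -216 and -123 in Siglecf and at -11 in Siglece. The letters of AP-1 (TGANTCA, in 7.81% of windows) and an E-box (CACGTG, 7.15%) were in none of the members' windows. These matches are letters in a window and not evidence of binding.

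The values are TPM, which is reads per length of transcript, scaled by the authors to the same sum in every library. They can be compared between genes, but read depth cannot be had from them, and no interval for counting error is printed. Genes at 1 TPM or more numbered 10883 in CD11ccre, 11107 to 11212 in Lyz2cre and 11348 to 11518 in WT. The groups did not overlap by that count, and its part in the results was not tested. Siah1a was listed at 0 in the CD11ccre library, at 0, 0 and 0.05 TPM in the Lyz2cre libraries and at 16.59, 6.72 and 13.35 TPM in the WT libraries. Siah2 was at 1.21 TPM in CD11ccre, at 1.95, 1.45 and 1.5 TPM in Lyz2cre, and at 13.56, 12.69 and 17.33 TPM in WT. Lyz2 itself was at 50676 TPM in CD11ccre, at 46.62 to 61.89 TPM in Lyz2cre and at 72.56 to 86.25 TPM in WT, so the WT libraries share the low level of the Lyz2cre line. CD11ccre and WT thus differ in Lyz2 as well as in Siah1a and Siah2. Differences tied to one or the other cannot be told apart there. Mitochondrially encoded genes took 4.23% of the sum in CD11ccre, 2.67 to 4.61% in Lyz2cre and 7.54 to 9.25% in WT, and their part in the results was not tested.

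Siglecf and Siglece were lower in both Cre lines than in WT, while Cd33, Siglec1 and Cd22 were not called changed in either line and Siglecg was close to 0 throughout. Calls come from limma on log2(TPM + 1) over the 11397 genes with a mean of at least 1 TPM, at a Benjamini-Hochberg adjusted p below 0.05, and 5 of the 6 genes passed that filter, Siglecg being the exception. In Lyz2cre against WT, 2 of the 5 were called lower and 0 higher, beside a background of 4.60% of all tested genes lower and 2.17% higher. At an unadjusted p below 0.05, 3 of the 5 passed, Cd22 being the third, beside 24.6% of all tested genes. In CD11ccre against WT, 2 of the 5 were again lower and 0 higher, beside 1.99% of genes lower and 0.895% higher. Both comparisons use the same WT libraries and are not independent. The median log2 fold change was -0.07 over the 5 members and -0.16 over all genes in Lyz2cre, and -0.37 over the 5 members and -0.29 over all genes in CD11ccre. Scaling by the median of ratios moved the medians of all genes to about 0 and the split of calls to 339 higher and 211 lower in Lyz2cre, against 247 and 524 in the deposited TPM, and to 152 higher and 85 lower in CD11ccre, against 102 and 227. The 2 members called lower were the same genes under that scaling in both lines.

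**Figure D1:**
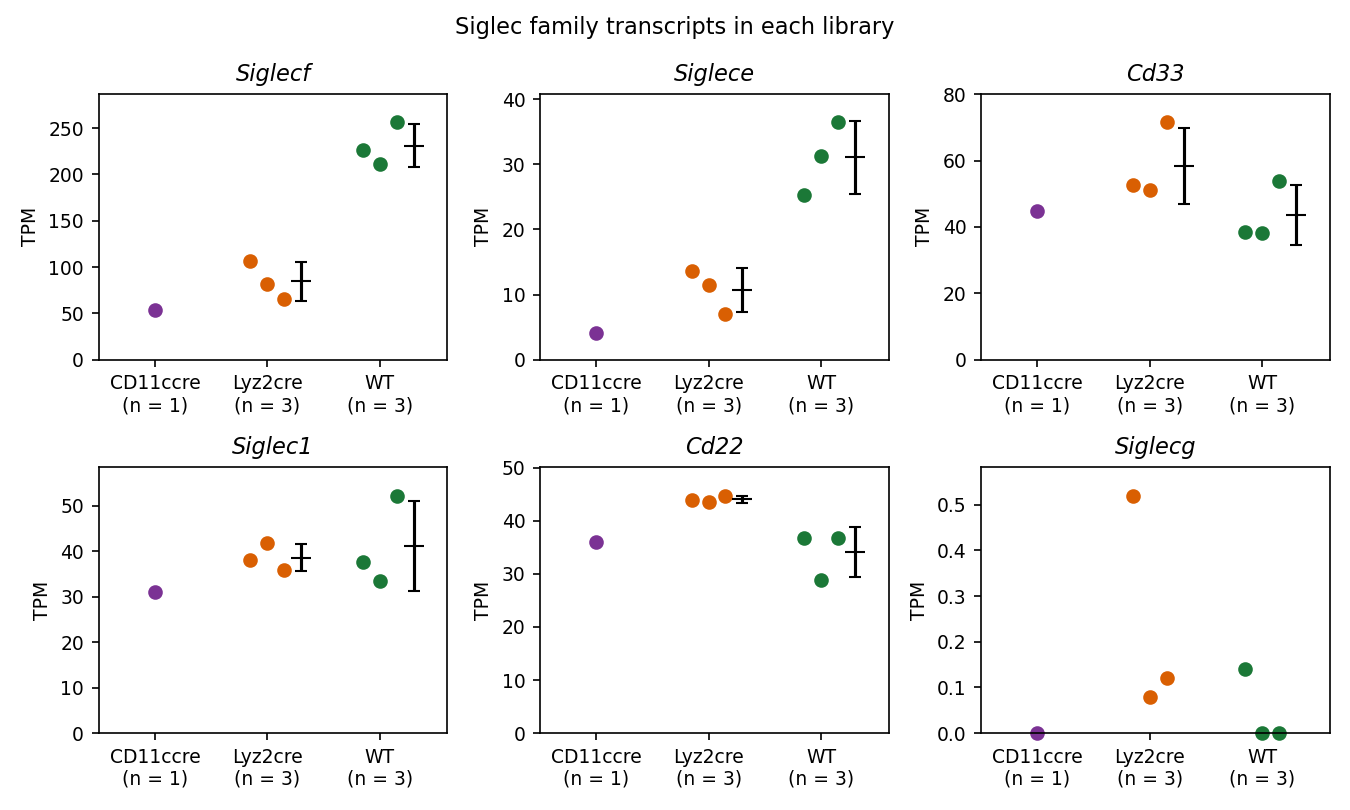
TPM of the 6 Siglec genes (1 panel each, linear axes from 0) in the CD11ccre library and in the 3 Lyz2cre and 3 WT libraries. Points are libraries, and horizontal lines are means of the groups of 3 with bars of 1 SD, left out for Siglecg. Siglecf and Siglece points of both Cre lines lie below all WT points, and the groups overlap for Cd33 and Siglec1.

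Siglecf, which encodes the ITIM-bearing receptor named in the WT gate, was at 53.87 TPM in the CD11ccre library, at 106.62, 81.31 and 65.48 TPM in Lyz2cre, and at 225.82, 210.72 and 256.5 TPM in WT. All 4 Cre libraries lay below every WT library, and the CD11ccre value was the lowest of the 7. The mean was 84.5 ± 20.8 TPM in Lyz2cre and 231 ± 23.3 TPM in WT (SD, n = 3 each), 2.73-fold lower in Lyz2cre. On the log2(TPM + 1) scale the difference was -1.46 ± 0.19 (SE; limma, adjusted p = 0.00746), and this call held in all 17 alternative settings. The CD11ccre library was 4.29-fold below the WT mean (log2 difference -2.08 ± 0.26, SE, limma adjusted p = 0.0136). For that line the single library is assumed to vary like the others. Among all genes ranked by TPM, Siglecf stood at position 2085 in CD11ccre, at 1209, 1566 and 1822 in Lyz2cre, and at 677, 681 and 561 in WT.

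Siglece encodes another ITIM-bearing receptor of the Cd33-related group, known in mouse neutrophils, monocytes and macrophages. Its transcript was at 4.17 TPM in CD11ccre, at 13.56, 11.47 and 7.04 TPM in Lyz2cre, and at 25.34, 31.3 and 36.48 TPM in WT. As for Siglecf, every Cre library was below every WT library and CD11ccre was the lowest. Lyz2cre averaged 10.7 ± 3.33 TPM and WT 31.0 ± 5.57 TPM (SD, n = 3 each), 2.90-fold lower in Lyz2cre, with a log2 difference of -1.48 ± 0.25 (SE, limma adjusted p = 0.0196). That call ended without WT replicate 2 (limma adjusted p = 0.0677), without WT replicate 3 (0.0567), without Lyz2cre replicate 2 (0.0590) and with no filter on low values (0.0709), and the direction did not change in these settings. CD11ccre was 7.44-fold below the WT mean (log2 difference -2.62 ± 0.36, SE, limma adjusted p = 0.0183), which missed the threshold once WT replicate 2 was left out (adjusted p = 0.0587).

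The libraries of Lyz2cre and WT did not overlap for Siglecf, Siglece and Cd22, the first pair lower and Cd22 higher, beside 23.3% of all tested genes that were lower without overlap and 7.45% that were higher. An exact two-sided permutation test of the mean TPM gave p = 0.1 for each of these 3 genes, the smallest that 3 against 3 libraries allow.

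Cd33, the founding gene of the Cd33-related group, encodes in the mouse a myeloid receptor whose tail differs from that of the human protein. It was at 44.79 TPM in CD11ccre, at 52.7, 51 and 71.64 TPM in Lyz2cre, and at 38.6, 38.33 and 53.9 TPM in WT. The highest WT library lay within the Lyz2cre range, and CD11ccre lay inside the WT range. The mean was 58.4 ± 11.5 TPM in Lyz2cre and 43.6 ± 8.91 TPM in WT (SD, n = 3 each). The log2 difference was 0.42 with an unadjusted 95% interval from -0.04 to 0.87 (limma adjusted p = 0.237), and the exact permutation p was 0.3. For CD11ccre the log2 difference from WT was 0.06 (interval -0.59 to 0.70, limma adjusted p = 0.928).

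Siglec1 encodes sialoadhesin, a large receptor without an ITIM that is known on lymphoid tissue macrophages and is inducible by interferon. It was at 31.01 TPM in CD11ccre, at 38.12, 41.75 and 35.98 TPM in Lyz2cre, and at 37.73, 33.54 and 52.25 TPM in WT. Lyz2cre libraries fell inside the WT range, and CD11ccre lay just below it. Lyz2cre averaged 38.6 ± 2.92 TPM and WT 41.2 ± 9.82 TPM (SD, n = 3 each; exact permutation p = 0.9). The log2 difference of -0.07 (interval -0.49 to 0.36, limma adjusted p = 0.862) became 0.11 under median-of-ratios scaling, so it has no settled sign. In CD11ccre it was -0.37 (interval -0.97 to 0.23, limma adjusted p = 0.431).

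Cd22 encodes an ITIM-bearing receptor best known as an inhibitor of B cell receptor signalling. Its transcript was at 35.95 TPM in CD11ccre, at 43.8, 43.52 and 44.73 TPM in Lyz2cre, and at 36.76, 28.76 and 36.8 TPM in WT. All 3 Lyz2cre libraries were above all WT libraries, and CD11ccre lay inside the WT range. The mean was 44.0 ± 0.633 TPM in Lyz2cre and 34.1 ± 4.63 TPM in WT (SD, n = 3 each). The log2 difference of 0.37 (interval 0.04 to 0.69) had a limma adjusted p of 0.159 and was not called, also under median-of-ratios scaling (0.54, adjusted p = 0.0668). In CD11ccre it was 0.08 (interval -0.38 to 0.54, limma adjusted p = 0.836).

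B cell markers were low beside Cd22. Of 10 such markers, 7 stayed below 1 TPM in every library, among them Ms4a1, Cd79a and Pax5, and Blk was listed at 0. Igkc, an immunoglobulin light chain gene, carried most of the sum in WT and was called lower in Lyz2cre, at 0.44 TPM in CD11ccre, at 1.18, 0 and 0.67 TPM in Lyz2cre, and at 5.8, 4.59 and 15.12 TPM in WT (limma adjusted p = 0.0315). The summed B cell level was 2.05 TPM in CD11ccre, 0.69 to 3.31 TPM in Lyz2cre and 6.96 to 17.74 TPM in WT, below the level of Cd22 alone in each. Mag, the neighbour of Cd22 that encodes the myelin-associated glycoprotein, was at 9.06 TPM in CD11ccre, at 13.01, 12.35 and 8.96 TPM in Lyz2cre, and at 18.52, 16.52 and 11.78 TPM in WT. Its groups overlapped, and the log2 difference was -0.41 in Lyz2cre (limma adjusted p = 0.304) and -0.70 in CD11ccre (0.243).

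Siglecg, which encodes an inhibitory receptor known chiefly in B-1 cells, was listed at 0 in CD11ccre, at 0.52, 0.08 and 0.12 TPM in Lyz2cre, and at 0.14, 0 and 0 TPM in WT. No library reached 1 TPM. The exact permutation p was 0.3, and no fold is given against values at 0. Of the other Siglec genes, Siglech, a marker of plasmacytoid dendritic cells, was listed at 0 except for 0.05 TPM in Lyz2cre replicate 3, and Siglec15 was listed at 0 in all libraries.

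**Figure D2:**
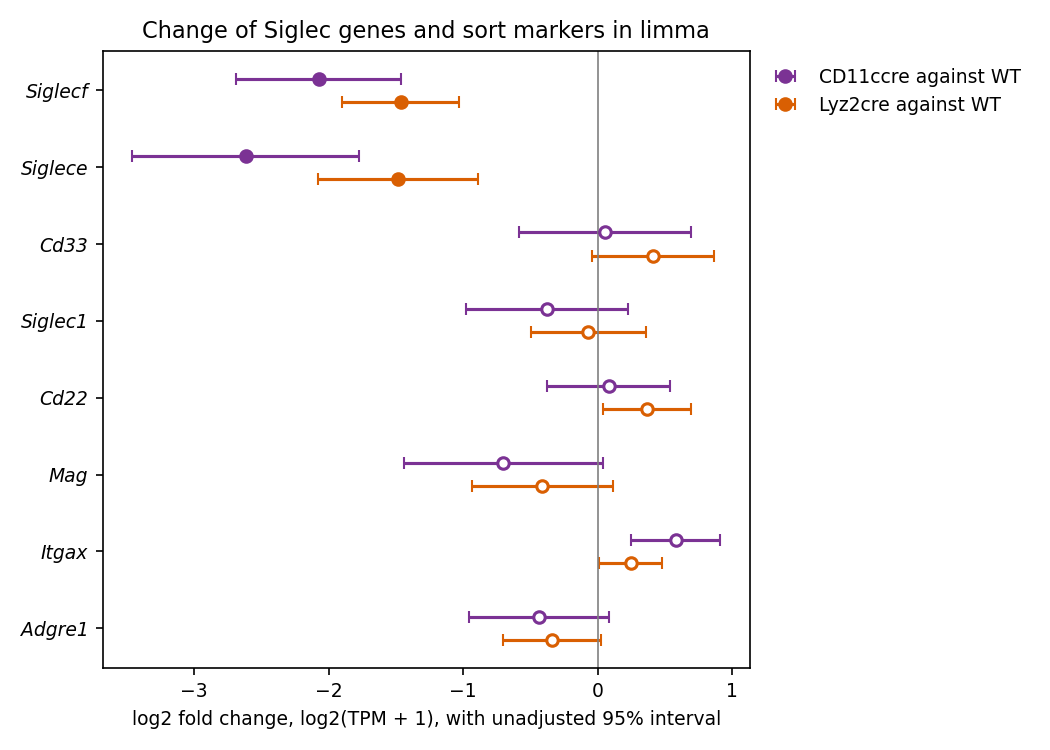
Log2 fold changes on the log2(TPM + 1) scale, with unadjusted 95% intervals from limma, of the Siglec genes that passed the filter and of Mag, Itgax and Adgre1, for CD11ccre and Lyz2cre, each against WT (filled points called, open points not called). The intervals of Siglecf and Siglece lie wholly below 0 in both lines, and those of Siglec1, Cd33 and Mag cross 0.

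The make-up of the Siglec transcript pool differed with these changes. The 6 genes summed to 169.79 TPM in CD11ccre, to 236 ± 16.4 TPM in Lyz2cre and to 381 ± 48.8 TPM in WT (SD, n = 3). Siglecf made up 31.7% of that sum in CD11ccre, 41.8, 35.5 and 29.1% in the Lyz2cre libraries, and 62.0, 61.5 and 58.8% in the WT libraries. WT libraries thus held most of the pool as Siglecf, and none of the Cre libraries did. Cd33 made up 26.4% in CD11ccre, 24.9 ± 6.05% in Lyz2cre and 11.4 ± 0.902% in WT, and Cd22 21.2%, 18.7 ± 1.39% and 8.97 ± 0.965% in the same order of groups. Siglece took 2.46% in CD11ccre, 4.48 ± 1.18% in Lyz2cre and 8.15 ± 1.11% in WT. These shares add to a fixed total, so a lower share of Siglecf raises the others.

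Siglecf was the most abundant member in each library except Lyz2cre replicate 3, where Cd33 exceeded it. In CD11ccre and Lyz2cre replicates 1 and 2 the order of TPM was Siglecf, Cd33, Cd22, Siglec1 and Siglece. The WT order was Siglecf, Cd33, Siglec1, Cd22 and Siglece, with Siglece above Cd22 in replicate 2. Across the WT libraries, Siglec1 values overlapped with those of both Cd33 and Cd22. Within each WT library Siglec1 lay below Cd33 (log2 ratio -0.03, -0.19 and -0.04) and above Cd22 (0.04, 0.22 and 0.51). Some of these differences are slight, and the order was not tested. Cd33 and Cd22 did not overlap, though the lowest Cd33 value (38.33 TPM) was close to the highest of Cd22 (36.8 TPM). Siglecf lay above all other members in every WT library.

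**Figure D3:**
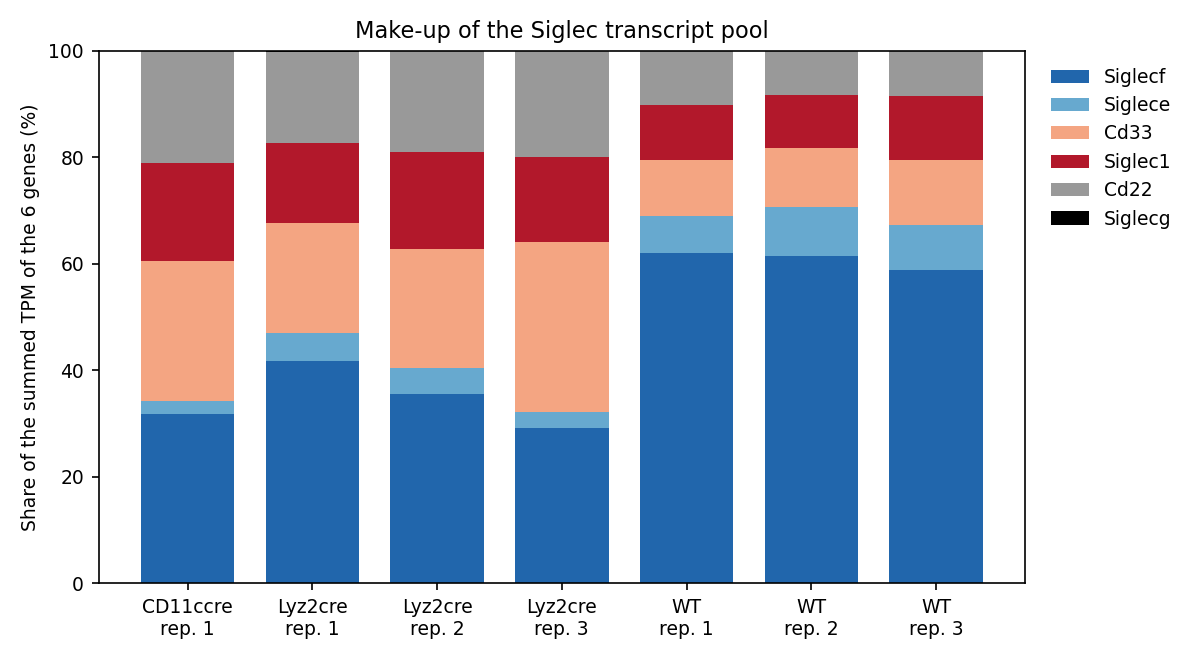
Share of each of the 6 Siglec genes in their summed TPM (percent, stacked bars from 0 to 100), by library. Siglecf fills 58.8 to 62.0% of the WT bars, 29.1 to 41.8% of the Lyz2cre bars and 31.7% of the CD11ccre bar.

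Ratios within a library do not depend on how TPM were scaled, and Siglecf was compared in this way with Itgax and Adgre1, which encode CD11c and F4/80, the other markers named in the WT gate. Itgax was at 541.27 TPM in CD11ccre, at 433.59, 421.09 and 430.95 TPM in Lyz2cre, and at 386.85, 326.6 and 373.19 TPM in WT. It was not called changed (log2 difference 0.25 in Lyz2cre, limma adjusted p = 0.186, and 0.58 in CD11ccre, 0.0746). In CD11ccre, Itgax was called higher under median-of-ratios scaling (0.90, adjusted p = 0.0221), after quantile normalization (0.76, 0.0421) and without the most abundant genes (0.75, 0.0470), so part of the lower ratio of Siglecf to Itgax there is a higher Itgax value. Adgre1 was at 93.33 TPM in CD11ccre, at 110.97, 94.78 and 94.39 TPM in Lyz2cre, and at 134.55, 102.8 and 146.01 TPM in WT, and it was not called either (-0.34, adjusted p = 0.235, and -0.43, 0.296).

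The log2 ratio of Siglecf to Itgax was -3.33 in CD11ccre, -2.37 ± 0.35 in Lyz2cre and -0.65 ± 0.12 in WT (SD, n = 3). Relative to Itgax, Siglecf was 3.30-fold lower in Lyz2cre than in WT, and the libraries did not overlap (exact permutation p = 0.1, adjusted over both ratios 0.1). Itgax itself was higher in every Lyz2cre library than in every WT library, which is part of this lower ratio. Under median-of-ratios scaling its log2 difference in Lyz2cre was 0.43 (limma adjusted p = 0.0525, not called). Relative to Adgre1 the log2 ratio was -0.79 in CD11ccre, -0.27 ± 0.24 in Lyz2cre and 0.87 ± 0.15 in WT (SD, n = 3), or 2.19-fold lower in Lyz2cre (exact permutation p = 0.1, adjusted 0.1). The lower Siglecf level was thus present against both other gate transcripts, with neither group overlapping. In bulk RNA, fewer cells that express a gene and less of its RNA per cell cannot be told apart.

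Among the 10 pairs of the 5 members above the filter, the ratio of Lyz2cre overlapped with that of WT for Siglecf over Siglece and for Cd22 over Cd33. The log2 ratio of Siglecf to Siglece was 3.69 in CD11ccre, 3.01 ± 0.20 in Lyz2cre and 2.91 ± 0.22 in WT (SD, n = 3), a difference of 0.10 between Lyz2cre and WT (exact permutation p = 0.5, adjusted over 10 pairs 0.556). In CD11ccre this ratio was 0.78 above the WT mean. For Cd22 over Cd33 the difference between Lyz2cre and WT was -0.05 (exact permutation p = 0.9).

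Each of the other pairs separated Lyz2cre from WT without overlap, with an exact permutation p of 0.1 and 0.125 after adjustment. The ratios reuse the same genes and are not independent, and most that separated hold Siglecf or Siglece. The share of all gene pairs that separate in this way was not computed. Siglecf fell against Cd33 by 1.90 log2 units (0.27 in CD11ccre, 0.52 ± 0.59 in Lyz2cre, 2.42 ± 0.15 in WT; SD, n = 3). Siglece differed from Cd33 by a similar -2.0 (-3.43 in CD11ccre, -2.49 ± 0.75 in Lyz2cre, -0.49 ± 0.17 in WT). The differences between Lyz2cre and WT were -1.85 for Siglecf over Cd22, -1.95 for Siglece over Cd22, -1.41 for Siglecf over Siglec1 and 1.51 for Siglec1 over Siglece. Siglec1 differed less from Cd22 (-0.45) and from Cd33 (-0.49). Siglecf and Cd33, which share the capitals in the sequences above, were among the pairs without overlap, as were most pairs. A link between the shared run and these levels was not tested.

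**Figure D4:**
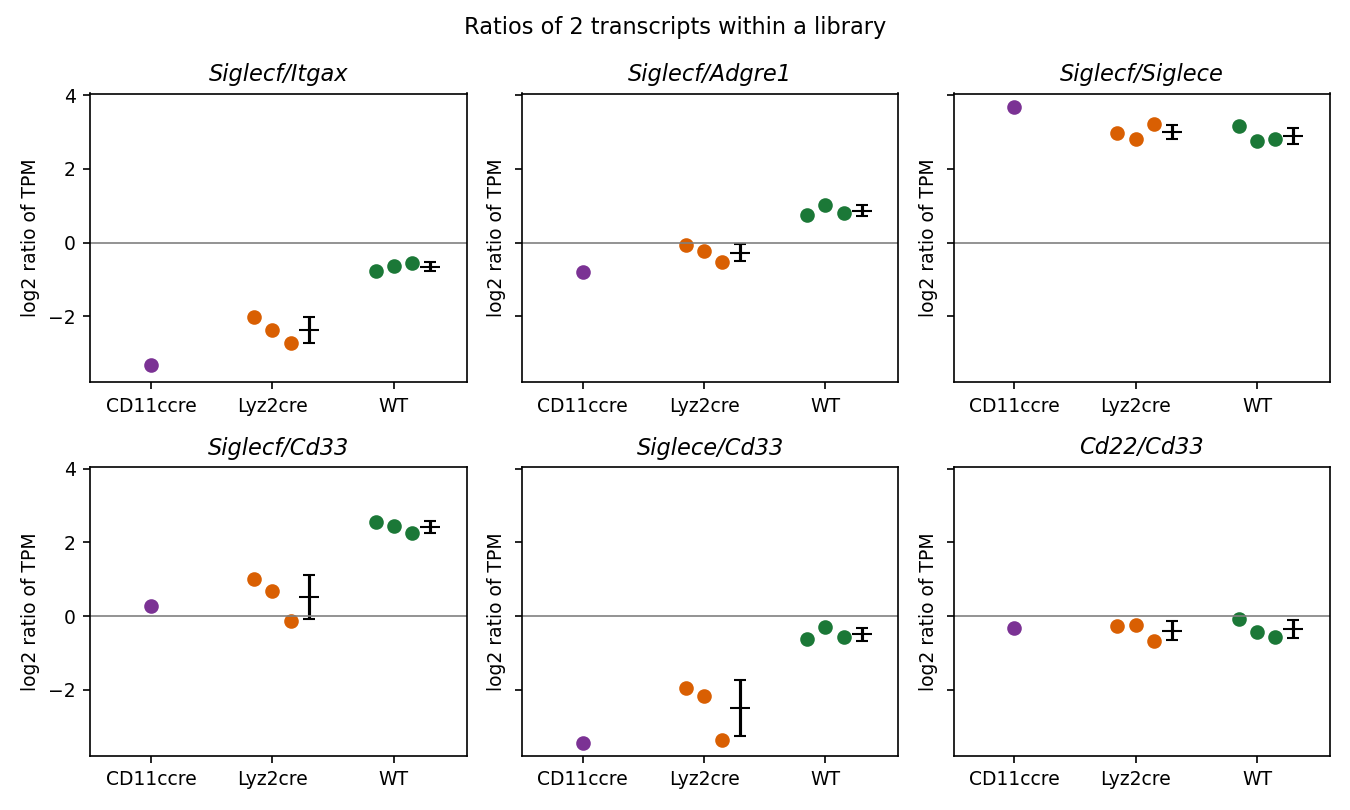
Log2 ratios of TPM of 2 transcripts within a library, in the CD11ccre library and the 3 Lyz2cre and 3 WT libraries; points are libraries and lines are group means with 1 SD. Siglecf over Itgax and over Adgre1 separate the Cre libraries from WT, and Siglecf over Siglece overlaps between Lyz2cre and WT.

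Between the Cre lines no member was called. In CD11ccre against Lyz2cre, 0 of the 5 tested members passed in limma, beside 0.114% of all tested genes. At an unadjusted p below 0.05, 1 of the 5 passed, beside 6.10% of all genes. Siglece was the lowest of them, at a log2 difference of -1.13 (interval -1.98 to -0.29, limma adjusted p = 0.769). Siglecf differed by -0.61 (interval -1.23 to 0.00, limma adjusted p = 0.819). With 1 CD11ccre library these intervals are wide, and the lines are not shown to be alike.

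Genes whose pattern over the 7 libraries was closest to that of a member were ranked by the root mean square difference of centred log2(TPM + 1) values, among 7993 genes with a mean of at least 5 TPM. The ranking used the libraries compared here. Lower values of the genes nearest to Siglecf or Siglece therefore follow from the choice and are not separate evidence. For Siglecf the nearest was Ear2, an eosinophil-associated ribonuclease gene that alveolar macrophages also express, at 0.133 log2 units. Ear2 was at 1923.6 TPM in CD11ccre, at 3216.61, 2584.65 and 2288.47 TPM in Lyz2cre, and at 6358.89, 6224.26 and 6929.27 TPM in WT (log2 difference -1.28 in Lyz2cre, limma adjusted p = 0.00441, and -1.76 in CD11ccre, 0.00978). It has near-identical family copies, so its level is uncertain. Trerf1 (0.162) and Serf1 (0.170) followed, and 7 genes lay within 0.2 log2 units of Siglecf. The Serf1 difference of -1.36 in Lyz2cre (limma adjusted p = 0.0257) lost its call in 5 of 6 refits that left out 1 WT or Lyz2cre library, with adjusted p up to 0.0853.

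Siglece had fewer close companions, with 1 gene within 0.2 log2 units. That gene was Emb, which encodes embigin, a chaperone of monocarboxylate transporters, at 0.191. Emb was at 5.35 TPM in CD11ccre, at 14.5, 11.18 and 7.22 TPM in Lyz2cre, and at 38.12, 34.76 and 38.15 TPM in WT (log2 difference -1.71 in Lyz2cre, limma adjusted p = 0.00950). In CD11ccre the difference was -2.58 (adjusted p = 0.0148), which missed the threshold once WT replicate 1 (0.0543) or 2 (0.0510) was left out. Trerf1 (0.243) and Abi3 (0.277) came next, so Trerf1 stood among the nearest 3 of both Siglecf and Siglece. Its log2 difference was -1.64 in Lyz2cre (limma adjusted p = 0.00603) and -2.27 in CD11ccre (0.0121). Abi3 was lower by -1.36 in Lyz2cre (0.0163), and missed the threshold in 3 of 6 refits, those leaving out WT replicate 2 (0.0549), Lyz2cre replicate 2 (0.0626) and Lyz2cre replicate 3 (0.0669).

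The flatter members had many near neighbours, so likeness to them says little. Within 0.2 log2 units lay 965 genes for Siglec1, 662 for Cd22 and 115 for Cd33. The nearest were Ube3b (0.0507), Dhx9 (0.0588) and Zdhhc3 (0.0644) for Siglec1, and Npc1 (0.0462), Cacul1 (0.0623) and Zfp36l2 (0.0643) for Cd22. For Cd33 they were Dhx29 (0.104), Cd84 (0.112), which encodes a receptor of the SLAM family, and Osbpl8 (0.117).

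Genes that make, carry or remove sialic acid mostly did not pass the test. Beside the list counts below, 4.60% of all tested genes were called lower in Lyz2cre and 2.17% higher. An unadjusted limma p below 0.05 was reached by 24.6% of them. Of 12 genes of sialic acid synthesis, activation and recycling, 10 were tested and 0 were called by limma in Lyz2cre against WT, with 1 at an unadjusted p below 0.05, and the median log2 difference was -0.13 against -0.16 over all genes. That one was Renbp, which encodes the renin-binding protein, an epimerase of the amino sugar precursor, at 191.69 TPM in CD11ccre, 183 ± 17.0 TPM in Lyz2cre and 249 ± 20.3 TPM in WT (SD, n = 3; limma adjusted p = 0.0659 in Lyz2cre). Of 20 sialyltransferases, which add sialic acid to glycans, 9 were tested and 11 stayed below 1 TPM in every library. St3gal4, which makes alpha-2,3-linked sialic acid, was called lower in Lyz2cre, at 29.65 TPM in CD11ccre, 25.8 ± 3.34 TPM in Lyz2cre and 42.0 ± 3.52 TPM in WT (log2 difference -0.69, limma adjusted p = 0.0380). The St3gal4 call ended in all 6 refits without 1 WT or Lyz2cre library (adjusted p 0.0587 to 0.125) and under median-of-ratios scaling (0.0744). Of 5 sialidase genes, counting Ctsa, the protective protein of Neu1, 2 were tested and 0 were called by limma, with 0 at an unadjusted p below 0.05. Neu1, the lysosomal sialidase, averaged 115 ± 7.19 TPM in Lyz2cre and 98.1 ± 20.0 TPM in WT (SD, n = 3 each), with 103.47 TPM in CD11ccre.

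Signalling genes below the receptors were tested for 11 of 12, and 0 were called by limma in Lyz2cre, with 4 at an unadjusted p below 0.05 and a median of -0.19. Ptpn6, which encodes SHP-1, was at 169.79 TPM in CD11ccre, at 200.53, 182.79 and 149.33 TPM in Lyz2cre, and at 254.99, 234.23 and 214.92 TPM in WT (log2 difference -0.41, limma adjusted p = 0.125). The Ptpn6 libraries did not overlap, but the difference did not pass. Tyrobp, the DAP12 adaptor that pairs with activating Siglecs, averaged 2373 ± 141 TPM in Lyz2cre and 2361 ± 128 TPM in WT (SD, n = 3 each, limma adjusted p = 0.974).

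Among 9 genes for proteins known to carry Siglec ligands, 7 were tested, with 1 called higher and 1 lower in Lyz2cre. Over all tested genes the shares were 2.17% higher and 4.60% lower. Cd52, a short and heavily glycosylated surface peptide, was at 89 TPM in CD11ccre, at 129.75, 136.4 and 116.44 TPM in Lyz2cre, and at 283.83, 303.74 and 315.26 TPM in WT. It fell by 1.23 log2 units in Lyz2cre (limma adjusted p = 0.00230) and by 1.74 in CD11ccre (0.00707). Cd24a, a mucin-like ligand carrier, was at 184.61 TPM in CD11ccre, at 137.77, 167.88 and 171.51 TPM in Lyz2cre, and at 104.08, 92.49 and 106.52 TPM in WT. Its rise of 0.65 in Lyz2cre (limma adjusted p = 0.0304) ended in 5 of 6 refits without 1 WT or Lyz2cre library, with adjusted p up to 0.111.

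Interferon-inducible genes, listed because Siglec1 is inducible by interferon, had 0 of 11 tested members called by limma in Lyz2cre, with 3 at an unadjusted p below 0.05 and a median of -0.17. A list of 12 genes of the alveolar macrophage programme held regulators, receptors and the enzyme Car4, which is also among the markers below. All 12 were tested, and the median was 0.10. Of them, 3 were called higher in Lyz2cre and 0 lower, beside 2.17% and 4.60% of all tested genes. Car4 (carbonic anhydrase 4) was at 2313 TPM in CD11ccre and averaged 2353 ± 216 TPM in Lyz2cre and 919 ± 194 TPM in WT (log2 difference 1.37, limma adjusted p = 0.00591). Csf2rb, a chain of the GM-CSF receptor, averaged 336 ± 31.6 TPM in Lyz2cre and 195 ± 12.6 TPM in WT, with 257.33 TPM in CD11ccre (0.78, limma adjusted p = 0.0110 in Lyz2cre). Tgfbr2, a TGF-beta receptor, averaged 161 ± 9.03 TPM in Lyz2cre and 110 ± 14.1 TPM in WT (0.55, limma adjusted p = 0.0463), and that call ended in 5 of 6 refits without 1 WT or Lyz2cre library, with adjusted p up to 0.147. Pparg, which encodes a transcription factor of alveolar macrophages, averaged 121 ± 14.6 TPM in Lyz2cre and 123 ± 10.99 TPM in WT (limma adjusted p = 0.943). Spi1, which encodes PU.1, averaged 319 ± 41.5 TPM in Lyz2cre and 333 ± 26.0 TPM in WT (adjusted p = 0.788). In CD11ccre against WT, the members of these lists that were called were Cd52, lower, and Car4, higher. The Car4 call (limma adjusted p = 0.0314) ended in 5 of 6 refits without 1 WT or Lyz2cre library.

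**Figure D5:**
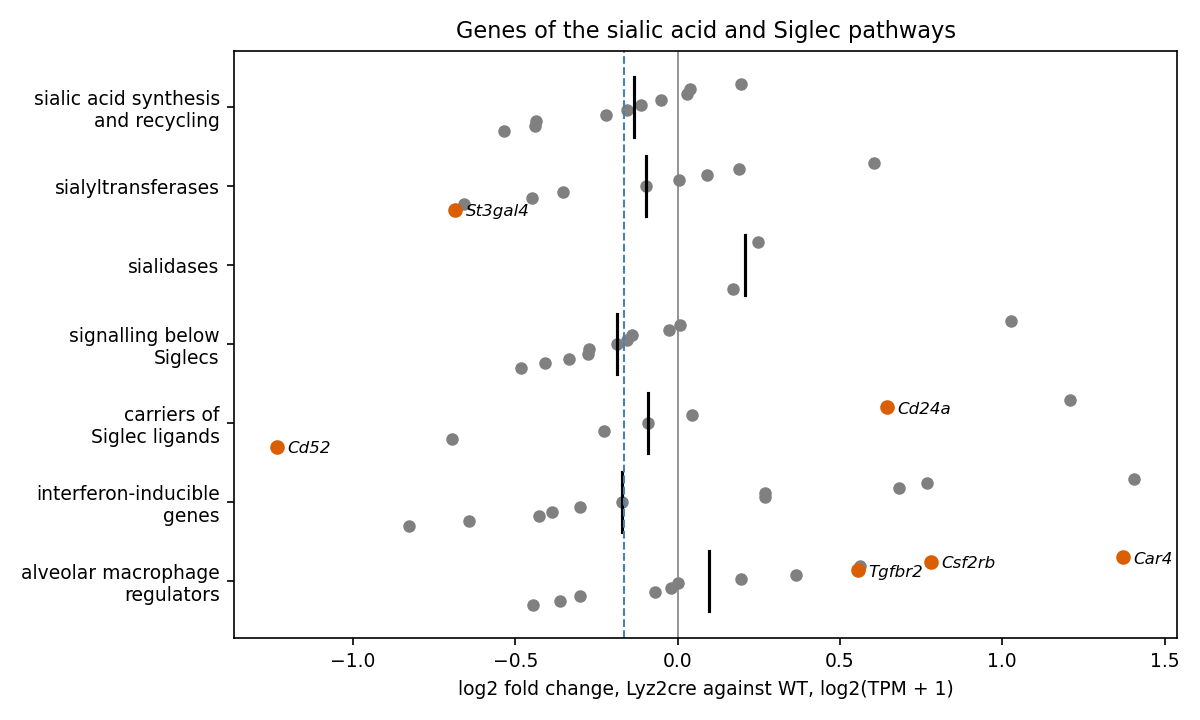
Log2 fold changes of Lyz2cre against WT on the log2(TPM + 1) scale for the tested genes of each pathway list (1 row a list); orange named points are called genes, grey points genes not called, short black lines the list medians and the dashed line the median of all genes (-0.16). The lists of synthesis, sialidases, signalling and interferon genes hold no called gene.

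Marker genes of the sorted cells and of other cells that carry Siglecs were set beside these results. All 13 alveolar macrophage markers had a mean of at least 1 TPM, and their sum was 71152 TPM in CD11ccre, 63036 to 78441 TPM in Lyz2cre and 30838 to 34027 TPM in WT. In Lyz2cre, 4 were called higher (Car4, Marco, Chil3 and Fabp4) and 2 lower (Siglecf and Ear2), beside 2.17% and 4.60% of all tested genes. The CD11ccre library differed from WT in the same direction for each of these genes. Most of the sum was Chil3, at 62200 TPM in CD11ccre and on average 60484 ± 7667 TPM in Lyz2cre and 21684 ± 1798 TPM in WT (SD, n = 3 each). Of 6 eosinophil markers, the cell type that also makes Siglec-F, Epx, Prg2, Ccr3 and Il5ra were listed at 0 in every library. The sum was 243.58 TPM in CD11ccre, 192.5 to 342 TPM in Lyz2cre and 15.59 to 22.41 TPM in WT, and Ear6 alone of the list passed the filter, called higher in both lines. The part of eosinophils in the Siglecf result was not tested.

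Of 7 monocyte markers, 4 were tested, and 2 of them, Fn1 and Ccr2, were called lower in Lyz2cre, beside 4.60% of all tested genes. In CD11ccre the log2 difference from WT was -3.92 for Fn1 and -1.77 for Ccr2. The sum of the 7 was 148.99 TPM in CD11ccre, 138.22 to 222.84 TPM in Lyz2cre and 355.96 to 417.36 TPM in WT, mostly Fn1 and Nr4a1, with Cx3cr1 below 1 TPM throughout. Nr4a1 (log2 difference -0.60, limma adjusted p = 0.154) and Spn (0.04, 0.923) were not called in Lyz2cre. Conventional dendritic cell markers (8 listed, 3 tested) summed to 6.2 TPM in CD11ccre, 5.88 to 10.99 TPM in Lyz2cre and 14.16 to 32.47 TPM in WT, with Flt3, Xcr1 and Ccr7 below 1 TPM. Batf3 made up most of the WT sum in replicates 1 and 2 and was called lower in Lyz2cre, at 1.92 TPM in CD11ccre, at 0.45, 0.54 and 1.95 TPM in Lyz2cre, and at 18.05, 22.33 and 4.2 TPM in WT (limma adjusted p = 0.0374). Clec9a of the same list averaged 1.80 ± 0.319 TPM in Lyz2cre and 0.593 ± 0.0737 TPM in WT, without overlap and not called (adjusted p = 0.178). Neutrophil markers (8 listed, 4 tested), for cells that also express Siglece, summed to 100.37 TPM in CD11ccre, 97.65 to 136.8 TPM in Lyz2cre and 27.79 to 68.29 TPM in WT, with Ly6g, Ngp and Camp at 0. S100a8 made up most of that sum in the Cre libraries and was called higher in Lyz2cre (101 ± 23.5 TPM in Lyz2cre, 24.9 ± 8.70 TPM in WT, limma adjusted p = 0.00985). S100a9 was at 1.62 TPM in CD11ccre, at 6.9, 5.14 and 1.16 TPM in Lyz2cre, and at 37.91, 10.67 and 10.78 TPM in WT, not called (adjusted p = 0.117). Interstitial macrophage markers (9 listed, 2 tested) summed to 5.02 TPM in CD11ccre, 3.06 to 11.4 TPM in Lyz2cre and 0.55 to 2.68 TPM in WT. Plasmacytoid dendritic cell markers ranged from 5.58 to 11.63 TPM and lung epithelium markers from 132.98 to 318.43 TPM over the libraries, and none of either list was called in either line. The part of these cells in the Siglec results was not tested.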

How the data were processed

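TPM of 47643 genes in 7 libraries were deposited by the authors. Per the labels' protocols, poly(A) RNA was made into directional NEBNext libraries and read from 1 end for 75 bases. Tools named in the submitters' processing notes are RSEM 1.3.1, STAR 2.7.0d and cutadapt 2.3, with the build mm10. Their parameters, the annotation and any strand setting were not given in the sources used here. TPM scales each library to 1000000, so abundant genes lower the values of others and depth is unknown. Groups came from the titles.

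The 11397 genes averaging 1 TPM or more were tested with limma 3.58.1 (R 4.3.3, trend) on log2(TPM + 1), which understates changes of low genes. The 7 libraries shared 1 fit with a coefficient per genotype (degrees of freedom: 4 residual, 3.35 prior). Benjamini-Hochberg adjustment ran over all genes, two-sided, threshold 0.05. Means and ratios were compared with exact two-sided permutation tests (scipy 1.17.1). The fit was tested on simulated data. N-fold values are plain TPM ratios.

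Members were named in full. For each above the filter, the 3 genes of nearest pattern were named (mean of at least 5 TPM, no predicted models, pseudogenes or other members), and other genes came from pathway and marker lists. Members and lists were chosen with earlier results of these data known, and the promoter motifs after the sequences were seen. GENCODE M21 gave coordinates (47224 IDs matched), RefSeq (GRCm38.p6) the promoters. Alternatives covered pseudocounts, filters, scalings, limma settings, the replicate number as a block, and leaving out libraries. The values of some listed genes are not reported here.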

Additional observations from a re-analysis of the deposited data

How the results depend on the processing

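Over all results and settings, 867 alternative values were computed, of which 746 kept their direction, their call or their size, 75 lost a call, 3 gained one, 31 moved and 12 changed sign. Siglecf in Lyz2cre kept its call in all 17 settings (log2 difference -1.64 to -1.28, limma adjusted p 0.00346 to 0.0413). The genes called in Lyz2cre against WT, 771 as reported, numbered 342 with no filter on low values, 436 without the trend and 239 to 514 with 1 WT or Lyz2cre library left out (833 without CD11ccre). In CD11ccre against WT, 329 as reported, they numbered 201 after quantile normalization, 122 without the trend and 94 to 183 with 1 WT or Lyz2cre library left out. Between the Cre lines, 13 as reported, they numbered 210 with no filter and 2 to 11 with 1 WT or Lyz2cre library left out. Of the 2 members called in Lyz2cre, 1 was left with no filter and 1 to 2 with 1 WT or Lyz2cre library left out, and in CD11ccre 1 to 2. Fewer libraries also leave fewer degrees of freedom. Other causes were not tested.

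The Siglec1 log2 difference in Lyz2cre, -0.07, was 0.11 under median-of-ratios scaling, 0.10 after quantile normalization, 0.025 without the most abundant genes, and -0.20 to 0.11 with 1 WT or Lyz2cre library left out. The difference of its mean TPM, -2.56, was 2.40 under median-of-ratios scaling and -6.37 to 2.98 with 1 WT or Lyz2cre library left out. With 1 WT or Lyz2cre library left out, the CD11ccre log2 differences ranged from -0.026 to 0.21 for Cd33 and from -0.032 to 0.14 for Cd22, and the Lyz2cre differences ranged from -0.0065 to 0.22 for Siglecf over Siglece and from -0.15 to 0.10 for Cd22 over Cd33.

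The labels give WT and Lyz2cre the same replicate numbers. Deviations of same-numbered libraries correlated at -0.0149, 0.0431 and 0.0656, so the numbers were not taken to pair them, and not every library correlated best with its own number. With the replicate number as a block, 390 genes were called in Lyz2cre, 21 in CD11ccre and 3 between the lines. The members called were then 1 in Lyz2cre (Siglecf, with Siglece at limma adjusted p = 0.0611) and 0 in CD11ccre (Siglecf 0.0740, Siglece 0.0888). Calls of Ear2 (0.0709), Trerf1 (0.0854), Emb (0.0709) and Cd52 (0.0563) in CD11ccre also ended with the block.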
